A study of Ursus arctos with 12 samples.

Results

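The mRNA levels of 79 heat shock proteins, chaperonins and their direct partners were compared between winter and summer in brown bear muscle. Members were taken by gene symbol: those starting with HSP, DNAJ, or BAG or CCT followed by a digit, with TCP1, HSF1, HSF2 and CRYAB, and without HSPG2 and HSPBAP1. Symbols matched 88 of the 30249 genes in the count table, and 79 of these had the 30 reads over 12 libraries that the test required, as did 17290 genes in all. The 9 left out were DNAJC5G with 17 reads, HSPA6 with 11, CCT8L2 with 10, DNAJB7 with 5, DNAJC5B with 1, and DNAJB3, DNAJB8, DNAJC22 and HSPB9 with 0. The lowest member that was kept was CCT6B, with 53 reads.

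The libraries came from 6 free-ranging brown bears (Ursus arctos) of 2 to 3 years, each biopsied in the vastus lateralis, a thigh muscle, in winter during hibernation and again in summer during the active period. No treatment or genotype was applied, so the groups differ by season and by all that goes with it: temperature, feeding, movement and the conditions of capture cannot be told apart. A biopsy is whole tissue, and the counts cannot separate fewer cells of a type from less RNA per cell.

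Chaperones hold unfolded proteins and help them to reach or regain their shape. In the HSP70 cycle, a J-domain protein delivers the client and triggers ATP hydrolysis, and a nucleotide exchange factor such as a BAG or HSP110 protein releases it. HSP90 completes the folding of kinases and steroid receptors, small heat shock proteins hold unfolding clients without ATP, and the ring-shaped chaperonins enclose a protein while it folds: HSPD1 with its lid HSPE1 in mitochondria, and CCT in the cytosol, where actin and tubulin are its main clients. HSF1 switches on many of these genes when proteins unfold. In muscle they are known for the care of the contractile apparatus, and mutations in CRYAB, BAG3, HSPB8 and DNAJB6 cause muscle disease.

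Sequencing depth ran from 16742406 to 32140160 counted reads per library. The members held 0.961 to 1.34% of the reads of a summer library (median 1.11%) and 0.955 to 1.04% of a winter library (median 0.984%). The first principal component of all genes separated the seasons, and on the second the winter library of bear 1509 lay apart, at −98.6. Its summed peripheral nerve markers reached 117 CPM against 5.93 to 23.6 in the other winter libraries, and its fibroblast markers 1362 CPM, near the winter maximum of 1382. Values without this bear are given for most members whose call changes and for some of the larger shifts. The labelled tissue was borne out by its markers: the summed level of 5 muscle fibre genes was 91543 to 158996 CPM in summer and 96501 to 131654 in winter. Of these genes TTN was called higher in winter, ACTA1 and MB lower, and CKM and DES were not called. Markers of several other cell types were lower in winter, with 5 of 6 fibroblast, 5 of 5 endothelial and 3 of 5 macrophage genes called lower. Endothelial markers summed to 565 to 899 CPM in summer and 356 to 411 in winter, macrophage markers to 69.1 to 115 and 37.6 to 70.8, and 0 of these genes were at 0 in every library. The part of these cells in the results below was not tested, apart from values given there.

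The chaperones moved in both directions, and more of them fell than rose. In winter 24 members were lower and 12 higher at an adjusted p below 0.05 (edgeR's quasi-likelihood test with the bear as a term, Benjamini-Hochberg adjustment over all 17290 genes, n = 6 bears), and 43 were not called. Among all genes tested, 40.8% were called, 19.6% higher and 21.2% lower. Of the members 45.6% were called, 15.2% higher and 30.4% lower. The median difference of the members was −0.12 on the log2 scale, where winter minus summer is meant throughout, and that of all genes was −0.01. Without bear 1509 the counts were 23 lower and 13 higher, and 43.1% of all genes were called. Winter and summer libraries did not overlap for 17 members, 11 lower and 6 higher in winter, or 21.5%. Of all genes 17.3% were so separated, 8.21% lower and 9.12% higher. In 35 members, 44.3%, all 6 bears moved the same way, against 37.4% of all genes.

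**Figure D1:**
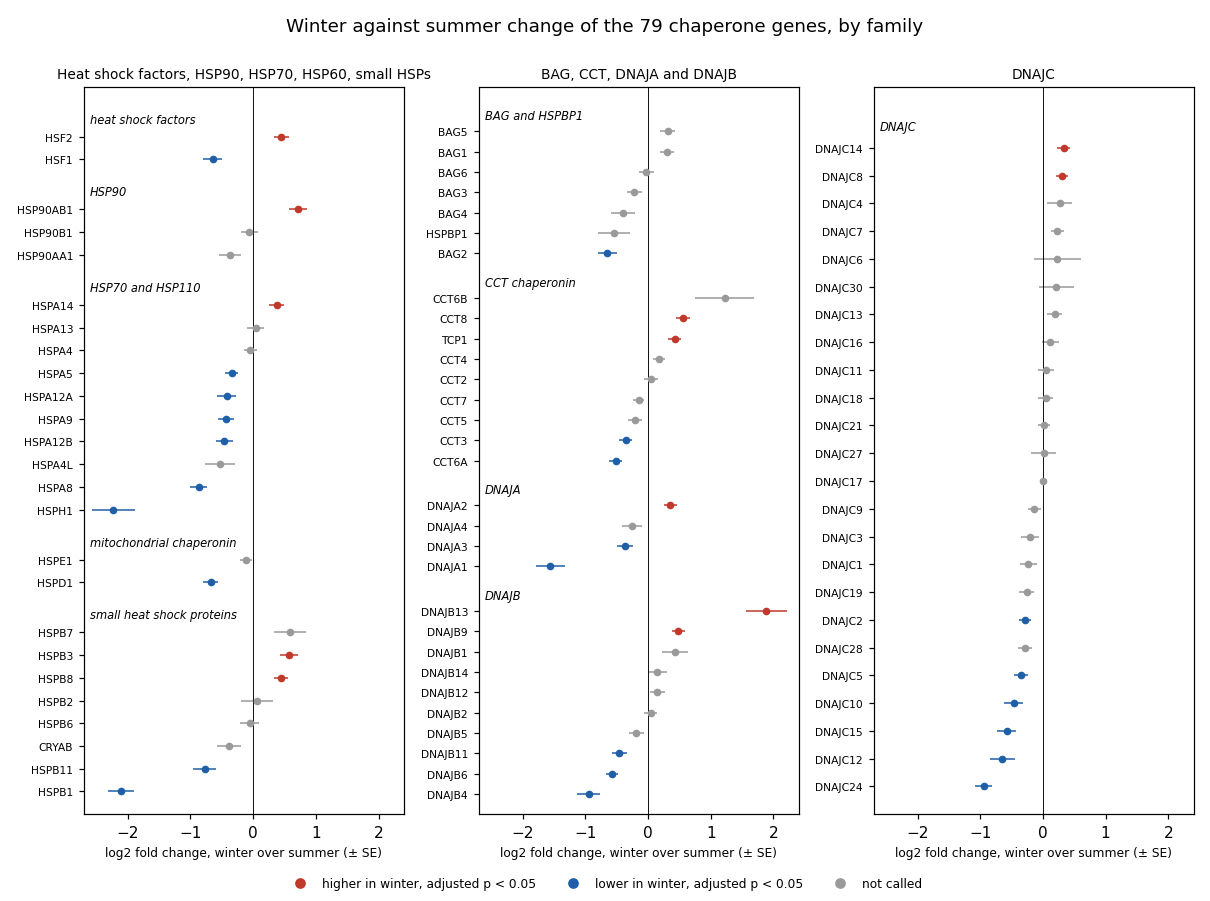
Winter minus summer difference of the 79 members on the log2 scale, ordered within their families, with the standard error of the edgeR fit as bars and colours for the call at an adjusted p below 0.05. HSPH1 and HSPB1 fell by more than any other member, at −2.23 and −2.11, the HSP70 and HSP110 family lies mostly to the left, and the CCT subunits lie on both sides of 0. DNAJC17, at a difference of 0.00, has no bar because its standard error could not be computed.

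The heat shock factors, which bind the promoters of chaperone genes, moved in opposite directions. HSF1, the main stress-activated factor, held 20.5 to 33.6 CPM (reads of a gene scaled to a common library size) in summer, with a median of 25.9, and 11.5 to 25.2 CPM in winter, with a median of 15.7. It was lower in winter in 6 of 6 bears, although the ranges overlapped, and the fitted difference was −0.64 ± 0.15 (log2, SE, adjusted p = 0.00637). HSF2, a factor linked to development and to modulation of HSF1, held 20.9 to 28.1 CPM in summer (median 22.4) and 22.0 to 36.5 in winter (median 33.2). It was higher in 5 of 6 bears, by 0.45 ± 0.12 (adjusted p = 0.0129), and lost the call when counts were scaled by library totals (0.37, adjusted p = 0.0624). Within each bear the change of HSF2 lay above that of HSF1, by 0.04 to 1.83 on the log2 scale, a pair set side by side after the values were seen.

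The cytosolic HSP90 genes differed from each other. HSP90AB1, the constitutive form, held 1247 to 1570 CPM in summer (median 1353) and 1906 to 2817 CPM in winter (median 2144). All winter libraries exceeded all summer libraries, and the gene was 1.64-fold higher in winter (0.71 ± 0.14 log2, adjusted p = 0.0024). HSP90AA1, the stress-inducible form, held 444 to 1234 CPM in summer (median 667) and 442 to 650 in winter (median 557). The ranges overlapped and 5 of 6 bears were lower in winter, with a difference of −0.37 ± 0.17 that was not called (adjusted p = 0.11). Without bear 1316, the animal in which HSP90AA1 was higher in winter, it was −0.51 with an adjusted p of 0.0279. In every bear the change of HSP90AB1 lay above that of HSP90AA1, by 0.62 to 1.64 on the log2 scale, a description with no test. HSP90B1, the endoplasmic reticulum (ER) form also known as GRP94, ranged over 120 to 197 CPM in summer and 127 to 172 in winter and was not called (−0.06 ± 0.13, adjusted p = 0.753).

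The HSP70 and HSP110 family, the ATP-driven core of the system, was lower in winter in 6 of its 10 tested members and higher in 1. The share called was 70.0%, against 40.8% of all genes, and the family median was −0.43 on the log2 scale. HSPH1, a heat-inducible HSP110 that releases nucleotide from HSP70 and works with it on aggregates, had the largest fall of all members. It held 31.7 CPM in the lowest summer library, 67.2 at the median and 145 in the highest, against 10.1, 11.5 and 27.3 CPM in winter. The seasons did not overlap, and HSPH1 was 4.69-fold lower in winter (−2.23 ± 0.34 log2, adjusted p = 0.00061). The bears differed widely in this fall, from −3.56 in bear 1317 to −0.38 in bear 1509, and the difference was −2.57 without bear 1509. HSPA8, the constitutive cytosolic HSP70 also known as HSC70, held 1786 to 3086 CPM in summer (median 2299) and 1036 to 1641 in winter (median 1334). Its seasons did not overlap either, and it was 1.83-fold lower in winter (−0.87 ± 0.14, adjusted p = 0.000745), by 0.51 to 1.2 in single bears.

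HSPA9 and HSPA5, which serve mitochondria and the ER, were lower as well. HSPA9, or mortalin, which pulls imported proteins into the mitochondrial matrix, held 358 to 448 CPM in summer (median 381) and 237 to 320 in winter (median 303), with no overlap (−0.43 ± 0.12, adjusted p = 0.0167). HSPA5, or BiP, the HSP70 of the ER, held 89.7 to 128 CPM in summer (median 113) and 77.2 to 107 in winter (median 85.0). It was lower in 6 of 6 bears with overlapping ranges (−0.34 ± 0.11, adjusted p = 0.0248), and the call was lost without bear 1305 (adjusted p = 0.0797), 1511 (0.0707) or 1512 (0.0574).

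The distant relatives HSPA12A and HSPA12B fell too. HSPA12B, known from endothelial cells, held 13.6 to 25.3 CPM in summer (median 19.4) and 10.4 to 18.8 in winter (median 13.8), and was lower in 5 of 6 bears (−0.46 ± 0.13, adjusted p = 0.0177, and 0.0522 without bear 1512). The endothelial markers named above were all called lower beside it, and their part in this fall was not tested. HSPA12A held 7.25 to 11.1 CPM in summer (median 8.76) and 6.12 to 7.26 in winter (median 6.63). It was lower in 6 of 6 bears (−0.42 ± 0.14, adjusted p = 0.0364) and was not called without bear 1305 (0.0866), 1511 (0.108) or 1512 (0.113).

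HSPA14, an HSP70 relative that sits on the ribosome, was the family's rise. It held 27.4 to 35.0 CPM in summer (median 33.3) and 34.1 to 48.5 in winter (median 41.9), higher in 5 of 6 bears with a small overlap (0.38 ± 0.12, adjusted p = 0.0242). The call was lost with library totals (adjusted p = 0.118) and without bear 1305 (0.0711), 1316 (0.069) or 1512 (0.0753). The remaining 3 were not called. These were HSPA4, a constitutive HSP110 (−0.04 ± 0.10, adjusted p = 0.77), HSPA13 of the ER (0.04 ± 0.14, adjusted p = 0.841) and HSPA4L, another HSP110 (−0.53 ± 0.23, adjusted p = 0.0946). HSPA4L was called without bear 1509 (−0.73, adjusted p = 0.0146). Within every bear HSPH1 lay below HSPA4 in its seasonal change, by 0.43 to 3.59 on the log2 scale.

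The barrel and the lid of the mitochondrial chaperonin did not move by the same amount. HSPD1, the barrel subunit HSP60, held 279 to 388 CPM in summer (median 347) and 183 to 257 in winter (median 213). The seasons did not overlap and HSPD1 was 1.60-fold lower in winter (−0.68 ± 0.12, adjusted p = 0.00123), in 6 of 6 bears. HSPE1, the lid HSP10, held 98.9 to 125 CPM in summer (median 104) and 82.7 to 109 in winter (median 102) and was not called (−0.12 ± 0.10, adjusted p = 0.357). The genes are neighbours in the RefSeq annotation of the brown bear assembly UrsArc2.0, where their spans overlap. The change of HSPE1 lay above that of HSPD1 in 6 of 6 bears, by 0.23 to 0.96, a description with no test.

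**Figure D2:**
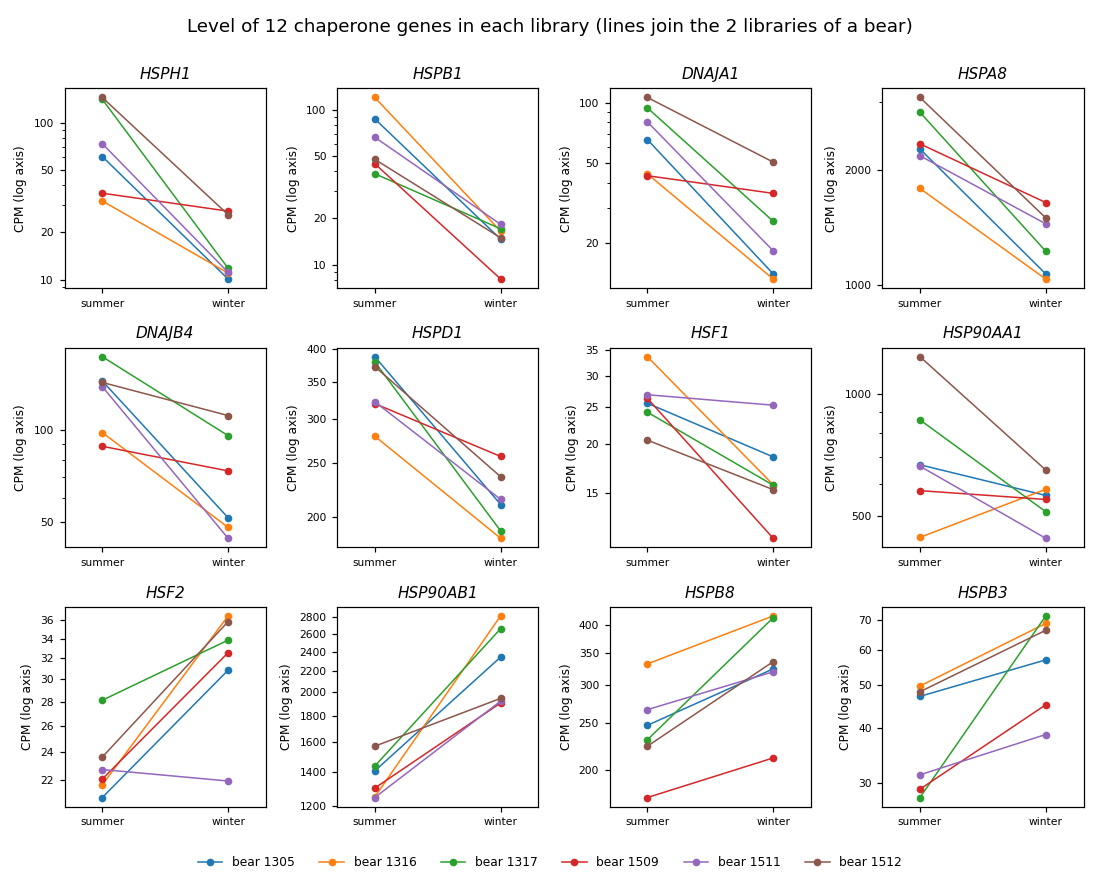
CPM of 12 members in each of the 12 libraries on a log axis, summer and winter side by side, with a line joining the libraries of a bear. HSPH1 falls from 31.7 to 145 CPM in summer to 10.1 to 27.3 in winter and HSPB1 from 38.6 to 120 to 8.06 to 18.2, while every line of HSP90AB1, HSPB8 and HSPB3 rises.

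The small heat shock proteins split, with 2 of 8 lower, 2 higher and 4 not called, or 50.0% called against 40.8% of all genes. HSPB1, or HSP27, which binds unfolding proteins and actin, held 38.6 to 120 CPM in summer (median 57.1) and 8.06 to 18.2 in winter (median 15.7). No winter library reached the lowest summer library, and HSPB1 was 4.32-fold lower in winter (−2.11 ± 0.21, adjusted p = 5.48e-05). The fall ran from −2.86 in bear 1316 to −1.18 in bear 1317. HSPB11, which carries the family's symbol but is known as the intraflagellar transport protein IFT25, held 5.95 to 8.45 CPM in summer (median 7.46) and 3.02 to 7.06 in winter (median 4.04). It was lower in 6 of 6 bears with overlapping ranges (−0.77 ± 0.19, adjusted p = 0.00714).

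HSPB8 and HSPB3 rose in every bear. HSPB8, or HSP22, which forms with BAG3 a complex that sends damaged muscle proteins to autophagy, held 175 to 332 CPM in summer (median 239) and 212 to 418 in winter (median 330). The ranges overlapped, but each bear was higher in winter, by 0.26 to 0.84 (0.45 ± 0.11, adjusted p = 0.01). HSPB3, a muscle form that pairs with HSPB2, held 27.8 to 49.7 CPM in summer (median 39.2) and 38.6 to 71.6 in winter (median 61.7). It was 1.5-fold higher in winter (0.58 ± 0.14, adjusted p = 0.00837), by 0.27 to 1.36 in single bears. Set beside HSPB1 within each bear, HSPB8 changed by 2.02 to 3.19 more and HSPB3 by 2.14 to 3.33 more on the log2 scale, pairs chosen after their values were seen.

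HSPB7, a heart and muscle form that binds filamin, differed in direction between bear 1509 and the others. It held 119 to 282 CPM in summer (median 215) and 144 to 394 in winter (median 361), and 5 of 6 bears were higher in winter. The difference was 0.59 ± 0.26 (adjusted p = 0.0904), and without bear 1509, which moved by −0.98, it was 0.89 and called (adjusted p = 0.00149). Without bear 1512, which moved by 1.60, it was 0.39 (adjusted p = 0.258). DESeq2 called it with all bears (adjusted p = 0.0292). The abundant CRYAB, which guards desmin and the Z-disc, held 638 to 1181 CPM in summer (median 798) and 471 to 836 in winter (median 631), with 4 of 6 bears lower (−0.39 ± 0.19, adjusted p = 0.129). HSPB6, or HSP20, was at 391.7 to 867 CPM in summer and 372 to 682 in winter (−0.05 ± 0.15, adjusted p = 0.804). HSPB2 was at 19.8 to 49.5 CPM in summer and 15.9 to 51.8 in winter, its bears ranging from −1.10 to 1.17 (0.06 ± 0.25, adjusted p = 0.875). HSPB2 and CRYAB are neighbours with overlapping spans in the same annotation, and neither was called.

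Among the nucleotide exchange and BAG proteins, 1 of 7 was called, or 14.3% against 40.8% of all genes. BAG2, which blocks the ubiquitin ligase CHIP, held 15.5 to 24.5 CPM in summer (median 21.1) and 9.99 to 15.6 in winter (median 13.3), lower in 6 of 6 bears (−0.65 ± 0.15, adjusted p = 0.00547). Its highest winter library lay just above its lowest summer library. The edgeR test called 0 members of the family higher, but 2, BAG1 and BAG5, had an unadjusted p below 0.05, and DESeq2 and limma voom called 2. BAG1, which links HSP70 to the proteasome, held 87.1 to 143 CPM in summer (median 115) and 120 to 162 in winter (median 140; 0.30 ± 0.12, adjusted p = 0.0555). BAG5 held 17.8 to 26.1 CPM in summer (median 23.1) and 25.9 to 31.9 in winter (median 27.8), higher in 6 of 6 bears (0.32 ± 0.12, adjusted p = 0.0521). Without the bear as a term BAG5 was called (adjusted p = 0.0309), as it was without bear 1511 (0.0457), and BAG1 was called without bear 1316 (0.0376) or 1317 (0.034).

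The remaining exchange factors were not called. BAG3, the stress-inducible partner of HSPB8, held 48.1 to 83.8 CPM in summer (median 64.8) and 30.9 to 80.8 in winter (median 57.3; −0.22 ± 0.12, adjusted p = 0.171). The differences of HSPBP1, BAG4 and BAG6 were −0.55 ± 0.25, −0.40 ± 0.19 and −0.03 ± 0.12, with adjusted p of 0.109, 0.12 and 0.885. HSPBP1 moved by −2.01 in bear 1509, and without this bear its difference was −0.28.

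The CCT subunits, which share a ring, moved in both directions. CCT8 and TCP1 were higher, CCT6A and CCT3 lower, and 5 of the 9 tested genes were not called. The 44.4% called was near the 40.8% of all genes. CCT8 held 98.7 to 138 CPM in summer (median 132) and 153 to 214 in winter (median 188), with no overlap, 1.47-fold higher in winter (0.55 ± 0.11, adjusted p = 0.00295). TCP1 held 162 to 179 CPM in summer (median 173) and 211 to 263 in winter (median 228), again with no overlap (0.42 ± 0.10, adjusted p = 0.00606). CCT6A held 116 to 134 CPM in summer (median 129) and 73.6 to 106 in winter (median 85.6), 1.43-fold lower with no overlap (−0.52 ± 0.10, adjusted p = 0.00283). CCT3 held 116 to 123 CPM in summer (median 122) and 79.8 to 114 in winter (median 91.8; −0.36 ± 0.11, adjusted p = 0.0243). Its seasons did not overlap, yet the call was lost without bear 1305 (0.0781), 1509 (0.0589) or 1512 (0.0822).

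The other subunits differed by less. CCT4 held 113 to 119 CPM in summer and 120 to 147 in winter, and although its libraries did not overlap, its difference of 0.17 ± 0.10 was not called (adjusted p = 0.167), except by DESeq2 without the bear as a term (0.0322). CCT5, CCT7 and CCT2 differed by −0.21 ± 0.11, −0.15 ± 0.09 and 0.05 ± 0.11 (adjusted p = 0.143, 0.219 and 0.745). CCT6B, a variant of CCT6A known from testis, had 1 to 16 reads per library, and its difference of 1.23 ± 0.47 was not called (adjusted p = 0.058). Within every bear CCT8 lay above CCT6A in its seasonal change, by 0.73 to 1.59 on the log2 scale, and TCP1 above CCT6A by 0.52 to 1.23, pairs chosen after their values were seen.

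**Figure D3:**
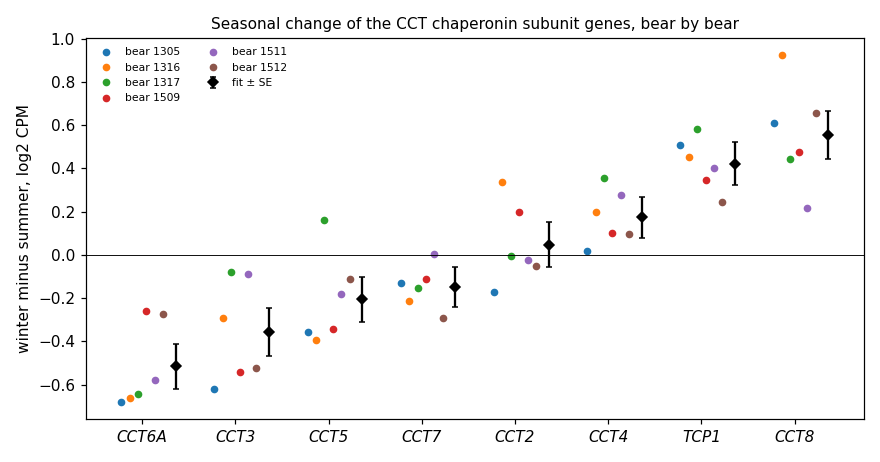
Winter minus summer difference of 8 CCT subunits on the log2 scale, with a point for each of the 6 bears and the edgeR fit with its standard error beside them. All 6 points of CCT8 and TCP1 lie above 0, at 0.22 to 0.92 and 0.25 to 0.58, and all 6 of CCT6A lie below, at −0.68 to −0.26.

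The J-domain proteins, which choose the clients of HSP70, were the largest family, with 38 tested, 11 lower, 5 higher and 22 not called. The 42.1% called was near the 40.8% of all genes. DNAJA1, a heat-inducible farnesylated partner of HSC70, fell most. It held 43.4 to 106 CPM in summer (median 73.0) and 13.3 to 50.7 in winter (median 22.0), 2.94-fold lower in winter (−1.56 ± 0.23, adjusted p = 0.000512). The ranges overlapped, and the fall ran from −2.21 in bear 1305 to −0.29 in bear 1509. Without bear 1509 the difference was −1.79. Its paralogue DNAJA2 moved the other way. DNAJA2 held 96.9 to 125 CPM in summer (median 105) and 115 to 157 in winter (median 137), higher in 6 of 6 bears (0.35 ± 0.10, adjusted p = 0.0179), and lost the call with library totals (adjusted p = 0.101) or without bear 1305 (0.0828). In every bear DNAJA2 lay above DNAJA1 in its change, by 0.63 to 2.91 on the log2 scale, a description with no test.

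DNAJA3, the mitochondrial form Tid1, held 44.7 to 58.1 CPM in summer (median 54.5) and 35.4 to 49.6 in winter (median 40.6; −0.37 ± 0.12, adjusted p = 0.0337). On leaving out bears the difference ran from −0.47 to −0.29, and the call was lost when bear 1305 was left out (adjusted p = 0.0521), or 1316 (0.0785), 1317 (0.0951), 1509 (0.0841) or 1512 (0.0758). DNAJA4 was not called (−0.25 ± 0.16, adjusted p = 0.237), and its difference was −0.076 without bear 1509.

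In the DNAJB group, 3 of 10 were lower and 2 higher, or 50.0% called against 40.8% of all genes. DNAJB4, a partner of HSC70 present in muscle, held 88.7 to 175 CPM in summer (median 142) and 44.1 to 112 in winter (median 62.6), 1.93-fold lower and so in 6 of 6 bears (−0.95 ± 0.19, adjusted p = 0.00239). DNAJB6, a suppressor of aggregation at the Z-disc, held 95.4 to 136 CPM in summer (median 114) and 65.0 to 87.2 in winter (median 75.3). Its seasons did not overlap (−0.58 ± 0.10, adjusted p = 0.00108). DNAJB11, or ERdj3, a partner of BiP named here after its values were seen, also fell without overlap, from 12.5 to 16.8 CPM in summer to 9.69 to 12.5 in winter (−0.46 ± 0.12, adjusted p = 0.0116). Another ER partner, DNAJB9 or ERdj4, rose. It held 22.5 to 29.1 CPM in summer (median 27.0) and 29.2 to 42.1 in winter (median 37.4), higher in 6 of 6 bears (0.49 ± 0.11, adjusted p = 0.00526).

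DNAJB1, or HSP40, the classic inducible partner of HSP70, was high in the summer library of bear 1512. It held 45.2 to 98.01 CPM in the other summer libraries and 264 CPM in that of bear 1512, and 87.4 to 154 CPM in winter. The difference was 0.43 ± 0.20 (adjusted p = 0.111), with 5 of 6 bears higher in winter and bear 1512 at −0.78. Without this bear it was 0.67 and called (adjusted p = 0.00516). DNAJB5 and DNAJB2, a neuronal and muscle form, differed by −0.18 ± 0.12 and 0.04 ± 0.11 and were not called (adjusted p = 0.246 and 0.779). DNAJB13, known from cilia and sperm and named after its values were seen, had 3 to 29 reads per library. It held 0.117 to 0.62 CPM in summer and 0.944 to 1.27 in winter, without overlap (1.89 ± 0.32, adjusted p = 0.00108).

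Of the 24 DNAJC proteins, a group of diverse roles that shares the J domain alone, 6 were lower and 2 higher. The 33.3% called lay below the 40.8% of all genes. DNAJC24, which helps to make diphthamide on elongation factor eEF2, held 25.4 to 40.3 CPM in summer (median 31.4) and 12.03 to 23.7 in winter (median 16.2), with no overlap (−0.95 ± 0.14, adjusted p = 0.000549). DNAJC15, of the mitochondrial inner membrane, held 8.29 to 15.1 CPM in summer (median 13.2) and 6.01 to 10.2 in winter (median 8.82; −0.58 ± 0.16, adjusted p = 0.0127). All 6 bears shared the direction in each of these genes. The other falls, named after their values were seen, were DNAJC12, DNAJC10 (the ER reductase ERdj5), DNAJC5 (the vesicle protein CSP) and DNAJC2 (a ribosome-bound partner of HSPA14). Their differences were −0.65 ± 0.20, −0.47 ± 0.14, −0.35 ± 0.11 and −0.28 ± 0.10 (adjusted p = 0.0241, 0.024, 0.0292 and 0.0381). On leaving out bears their differences ran from −0.81 to −0.53, −0.57 to −0.38, −0.39 to −0.29 and −0.32 to −0.26, in that order, and their adjusted p passed 0.05 in several cases. DNAJC10 was lost without bear 1305 (0.0722), 1511 (0.0685) or 1512 (0.0868), and DNAJC5 without 1305 (0.0591), 1317 (0.0903), 1509 (0.0616) or 1512 (0.0613). DNAJC12 was lost without 1305 (0.0791), 1316 (0.0718), 1317 (0.0544) or 1511 (0.0584), and DNAJC2 without any single bear but 1509, at 0.0599 to 0.103. Without the bear as a term, DNAJC12 and DNAJC2 were not called either (adjusted p = 0.0958 and 0.0524).

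The DNAJC rises were small. DNAJC8, a spliceosome protein, held 46.8 to 66.5 CPM in summer (median 60.5) and 64.3 to 83.4 in winter (median 71.5; 0.30 ± 0.10, adjusted p = 0.0291). DNAJC14, linked to receptor export from the ER, held 25.6 to 32.2 CPM in summer (median 30.7) and 30.6 to 45.0 in winter (median 38.0; 0.33 ± 0.11, adjusted p = 0.0318). Both rose in 6 of 6 bears with overlapping ranges. With library totals neither was called (adjusted p = 0.145 and 0.144), nor with the low-count filter removed (0.0634 and 0.0601). DNAJC8 was also lost without bear 1305 (0.0943) or 1317 (0.0709), and DNAJC14 without bear 1305 (0.113), 1316 (0.0812), 1317 (0.0539) or 1511 (0.0733).

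Grouped by compartment, 4 of 10 mitochondrial members were lower and 0 higher by edgeR, and 0 were higher at an unadjusted p below 0.05 or by DESeq2. The 40.0% called stood beside the 40.8% of all genes. These 4 were HSPA9, HSPD1, DNAJA3 and DNAJC15, and the list's median was −0.27 on the log2 scale. Of 12 ER members tested, 3 were lower and 1 was higher, or 33.3% called, and the median was −0.01. The lower genes were HSPA5, DNAJB11 and DNAJC10, and the higher one was DNAJB9. The 57 members of neither list were lower in 17 cases and higher in 11, or 49.1% called, with a median of −0.05. DNAJC14, linked above to export from the ER and called higher, was not on the ER list and counts among these 57.

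From a list of genes often read as the heat shock response, which also holds the constitutive HSPA8 and HSP90AB1, 12 were tested. Of these, 5 fell (HSPH1, HSPB1, DNAJA1, HSPA8 and HSPD1), 2 rose (HSP90AB1 and HSPB8) and 5 were not called (HSP90AA1, HSPE1, CRYAB, DNAJB1 and BAG3). The share called was 58.3%, against 40.8% of all genes, and the median was −0.38. HSPA1A, HSPA1B and HSPA1L, the other genes of the list, were not analysed here. Bear 1512 held the highest of the 6 summer values for 6 of the 12 genes, namely HSPA8, HSPH1, HSP90AA1, HSP90AB1, DNAJB1 and DNAJA1. The summer libraries were spread widely for DNAJB1, 5.84-fold from lowest to highest against 1.76-fold in winter, for HSPH1, 4.56-fold against 2.71-fold, and for HSP90AA1, 2.78-fold against 1.47-fold. DNAJA1 was spread the other way, 2.45-fold in summer and 3.82-fold in winter.

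The bears did not contribute equally. Among the 24 members called lower, bear 1509 had the smallest fall, or a change in the other direction, in 12, and its median change over them was −0.35 against −0.67 to −0.52 in the other 5 animals. Among the 12 called higher, bears 1511 and 1512 had the smallest change in 5 genes each, and the median change of bear 1511 was 0.25 against 0.45 to 0.55 in the others. The winter library of bear 1509 had the lowest winter level of the 6 for 26 of the 79 members and the highest for 16, and that of bear 1511 the lowest for 24 and the highest for 17. Over all genes, the winter libraries of bears 1509 and 1511 lay at 30.2 and 25.5 on the first principal component. The other winter libraries lay at 59.0 to 74.4, farther from summer. Whether the members differed from other genes in this was not tested.

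Co-chaperones and folding factors outside the symbol rule were read from a list of 51 genes, of which 49 were tested. In winter 16 were lower and 11 higher, or 55.1% called against 40.8% of all genes, with a median of 0.01 on the log2 scale. Among called genes that averaged 1 log2 CPM or more, the largest falls were those of SERPINH1, PPID, FKBP4, CHORDC1 and GRPEL1. SERPINH1, or HSP47, the collagen chaperone of the ER, held 71.4 to 121 CPM in summer (median 82.4) and 13.1 to 23.1 in winter (median 20.8), 4.49-fold lower (−2.17 ± 0.13, adjusted p = 5.47e-06). It is made in cells that secrete collagen, and the summed fibroblast markers stood beside it at 3260 to 8119 CPM in summer and 316 to 1382 in winter. That sum holds the collagen genes COL1A1 and COL3A1, which differed by −5.17 and −5.08. The other markers on the list fell by less, with LUM at −2.13, CD34 at −0.92, DCN at −0.91 and PDGFRA at −0.46, the last not called. The part of these cells in the fall of SERPINH1 was not tested.

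PPID, FKBP4 and CHORDC1 are partners of HSP90. PPID, or cyclophilin 40, held 54.2 to 80.6 CPM in summer (median 70.1) and 15.7 to 45.4 in winter (median 23.4), 2.85-fold lower (−1.51 ± 0.16, adjusted p = 8.19e-05). FKBP4, which binds steroid receptor complexes, held 45.4 to 73.8 CPM in summer and 28.9 to 35.3 in winter (−0.92 ± 0.11, adjusted p = 0.000118), and CHORDC1 26.6 to 45.3 and 17.8 to 26.3 (−0.83 ± 0.16, adjusted p = 0.00198). None of these 3 overlapped between seasons. FKBP5, which competes with FKBP4 on steroid receptors and is itself induced by glucocorticoids, rose. It held 33.8 to 109 CPM in summer (median 54.6) and 98.7 to 162 in winter (median 121), higher in 5 of 6 bears (1.07 ± 0.25, adjusted p = 0.007). Bears 1305 and 1317 hardly moved, at −0.03 and 0.08, and the other bears rose by 1.34 to 1.84. STIP1, or HOP, which bridges HSP70 and HSP90, and STUB1, the ubiquitin ligase CHIP, fell, with differences of −0.56 ± 0.10 and −0.61 ± 0.14 (adjusted p = 0.00143 and 0.00522). FKBP5, STIP1 and STUB1 were named after their values were seen.

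GRPEL1, the exchange factor of HSPA9 in mitochondria, held 48.9 to 60.3 CPM in summer (median 57.3) and 26.9 to 37.5 in winter (median 31.1), without overlap (−0.82 ± 0.10, adjusted p = 0.000132). TRAP1, the mitochondrial HSP90, named after its value was seen, differed by −0.71 ± 0.14 (adjusted p = 0.00218). HSCB, the J protein that serves iron-sulfur cluster assembly in mitochondria, moved the other way, from 9.73 to 18.8 CPM in summer (median 13.0) to 15.7 to 30.5 in winter (median 25.1; 0.83 ± 0.17, adjusted p = 0.00349).

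SEC63, the J protein of the ER translocon, had the largest rise on the list. It held 51.9 to 66.3 CPM in summer (median 59.6) and 126 to 150 in winter (median 137), 2.32-fold higher with no overlap (1.21 ± 0.10, adjusted p = 2.17e-05). The prefoldin subunits, which hand nascent actin and tubulin to CCT, rose in 4 of 6 cases, with a median of 0.42. Among all genes 19.6% were called higher. PFDN6 held 12.3 to 24.9 CPM in summer and 29.5 to 38.8 in winter (0.85 ± 0.12, adjusted p = 0.000469) and PFDN1 70.0 to 113 and 130 to 162 (0.56 ± 0.13, adjusted p = 0.00699), both without overlap. Of the others, all named after their values were seen, PFDN5 and VBP1 rose by 0.43 ± 0.13 and 0.41 ± 0.11 (adjusted p = 0.0192 and 0.0141), and PFDN2 and PFDN4 were not called (0.26 ± 0.23 and −0.03 ± 0.16, adjusted p = 0.393 and 0.896). Without bear 1509 PFDN2 was at 0.43 (adjusted p = 0.139). PFDN5 was not called without bear 1305 (0.0594), 1317 (0.0504) or 1511 (0.0512), nor VBP1 with library totals (0.0759). HSF4, a heat shock factor known from the lens, held 6.54 to 9.68 CPM in summer (median 8.07) and 7.06 to 15.3 in winter (median 12.3), higher in 6 of 6 bears (0.56 ± 0.14, adjusted p = 0.0095).

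**Figure D4:**
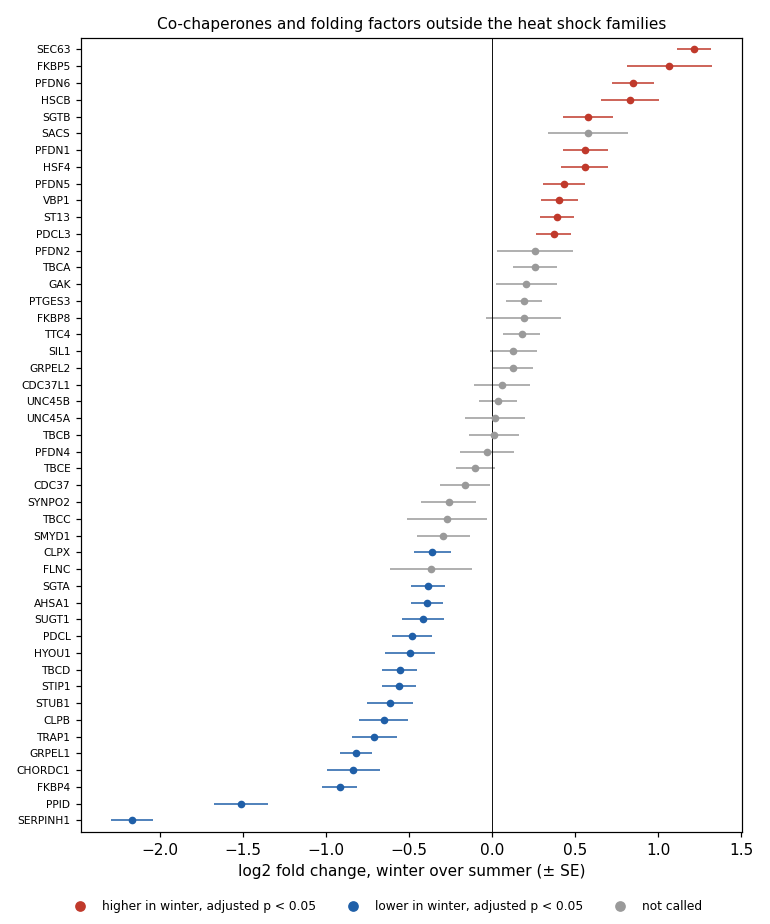
Winter minus summer difference on the log2 scale, with the standard error of the edgeR fit, of the 47 listed co-chaperones and folding factors that had at least 100 reads in some library. SERPINH1 at −2.17 and PPID at −1.51 lie farthest below 0, and SEC63 at 1.21 and FKBP5 at 1.07 farthest above.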

How the data were processed

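The authors prepared stranded poly-A libraries, aligned single reads of 50 bases to the brown bear assembly ASM358476v1 with TopHat2 2.1.1 and Bowtie2 2.2.9, and counted them per gene with featureCounts 1.6.2 (versions from the submitters' processing notes). The deposited values are raw read counts, neither normalized nor filtered, and all 12 columns were used. Which library ran in which sequencing lane is not given in the sources used here.

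After TMM scaling of genes with at least 30 summed reads, the seasons were compared by edgeR 4.0.16 (glmQLFit and glmQLFTest, R 4.3.3, limma 3.58.1) with bear and season as terms. Adjusted p are Benjamini-Hochberg values over 17290 genes, and a gene was called below 0.05. CPM are TMM-scaled. Single-bear changes are differences of log2 CPM with a prior count of 2, and the standard error is the fitted log2 difference divided by the square root of F. The p set the season difference against the variation left after the bear and season terms, in 6 bears sampled once per season. Levels of different genes were not compared, because transcript lengths were not used here.

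The labels number the bears and the study sampled the same animals in both seasons. The correlation of a bear's own libraries, each taken as its deviation from the season mean, was 0.0903 (bear 1509) to 0.344 (bear 1511). Over 30 pairs of libraries from different animals its median was −0.0634 and its maximum 0.142. The value of bear 1509 lay below this maximum, so its pairing rests on the labels. No library repeats another, since the chi-square per gene between libraries of a season was at least 35.8. Simulated data for 17141 genes of this winter and summer comparison, with 200 changed, gave a recovery of 90% at 2-fold and 100% at 4-fold, with 10 others called. The simulation gave all genes the same spread and drew its changed genes from those with more reads. Far fewer genes changed in it than were called here, and no change was below 2-fold. Its rates therefore do not describe smaller changes or members with few reads.

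The members and lists were chosen with earlier results of these data known. Named were all members outside the J-domain proteins, DNAJA1 to DNAJA4, DNAJB1, DNAJB2, DNAJB4, DNAJB5 and DNAJB6, and the 5 largest called rises and falls of the J-domain proteins and of the co-chaperones that moved alike in the 6 animals and averaged 1 log2 CPM or more. Only 4 J-domain rises met this. Alternatives were the fit without the bear, DESeq2 1.42.0 with and without it, limma voom, RLE, library totals, no filter, filterByExpr, each bear left out, and stricter limits. Promoters and protein sequences were not analysed here, and gene positions served only to find neighbouring members. In RefSeq's UrsArc2.0 annotation 78 of the 79 symbols matched, and it was used for neighbours alone.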

Additional observations from a re-analysis of the deposited data

Results flagged for a closer look

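In 9 of 130 sets of 6 libraries of a season, a library of a named gene lay farther from its neighbour on the log2 CPM scale than Dixon's 95% critical value allows, where chance gives about 1 in 20. All 9 lay below the others on that scale. On CPM itself, a scale added after seeing the data, 7 sets passed, 4 of them among the 9. The 3 others were high: HSPB6 in summer, with 867 CPM at most, DNAJB1 in summer, with 264 CPM in bear 1512, and PPID in winter, with 45.4 CPM at most. In the winter library of bear 1509, HSPB1 was at 8.06 CPM against 14.6 to 18.2 in the other winter libraries, HSPB7 at 144 CPM against 276 to 394, and HSF4 at 7.06 CPM against 12.1 to 15.3. In the winter library of bear 1511, HSF2 was at 22.0 CPM against 30.9 to 36.5, and HSP90B1 at 127 CPM against 166 to 172. In the summer library of bear 1316, CCT8 was at 98.7 CPM against 123 to 138, and HSP90B1 at 120 CPM against 167 to 197. DNAJA3 was at 44.7 CPM in the summer library of bear 1511 against 53.5 to 58.1, and DNAJC15 at 8.29 CPM in that of bear 1317 against 13.2 to 15.1. No explanation of these values was tested.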

How the results depend on the processing

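Of the 30 named members called, 20 were called in all 14 alternatives (6 rises and 14 falls, HSPH1, HSPB1, HSPA8, HSPD1, DNAJA1 and HSP90AB1 among them), and no called member changed sign. Of the 25 not called, 18 were called in no alternative. Scaling by library totals shifted the median of all genes by −0.08 and gave 7 members higher and 25 lower (all genes 2700 and 4083), against 12 and 24. It left 0 higher among the heat shock factors, the HSP70 and HSP110 family, DNAJA and DNAJC, and the last also had 0 with no filter. An adjusted p below 0.01 with a fold limit of 1.3 or 0.77 left 7 members higher and 12 lower, 24.1% of them against 25.7% of all genes. Without the replicate block 36 members were called, 34 of them shared, with DNAJC2 and DNAJC12 lost and DNAJC7 and BAG5 gained. Of all genes 39.5% were called in that fit. BAG proteins called higher were 1 without the replicate block or with RLE and 2 with DESeq2 (with or without the block), voom or filterByExpr, against 0. Leaving out each bear in turn gave 8 to 13 members higher and 16 to 23 lower. Without bear 1305, 24 of the 79 members were called, a smaller share than the 33.6% of all genes. On leaving out any other bear the share of the members was the larger one. Without bear 1512 it was little larger, with 28 members called beside 34.3% of all genes. The families then ranged as follows: HSP90 lower 0 to 1, HSP70 and HSP110 higher 0 to 1 and lower 3 to 7, BAG higher 0 to 1, CCT lower 1 to 2, DNAJA higher 0 to 1 and lower 1 to 2, DNAJC higher 0 to 2 and lower 2 to 6, and ER members lower 1 to 3. Some uncalled differences near 0 changed sign. With library totals HSPA13 was −0.039, CCT2 −0.031, HSPB2 −0.020 and DNAJB2 −0.037, and BAG6 was 0.0074 by DESeq2 without the block. On leaving out bears, HSPA13 ranged from −0.033 to 0.17 (negative without 1316), CCT2 from −0.0066 to 0.079 (without 1316), HSPB6 from −0.14 to 0.082 (positive without 1316), PFDN4 from −0.13 to 0.074 (positive without 1316 or 1511), HSP90B1 from −0.16 to 0.057 (positive without 1511), HSPB2 from −0.16 to 0.29 (negative without 1317, 1511 or 1512), DNAJB2 from −0.015 to 0.12 (negative without 1317), BAG6 from −0.081 to 0.097 (positive without 1509) and DNAJC6 from −0.18 to 0.38 (negative without 1509). The cause of these changes was not tested. Fewer bears also means fewer samples in the fit. The lowest members named were CCT6B, with at most 16 reads in a library, and DNAJB13, with at most 29.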

Other observations

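DNAJC6, or auxilin, which uncoats clathrin vesicles and is known from neurons, was not called (0.23 ± 0.37 log2, adjusted p = 0.65) but held 5.57 CPM in the winter library of bear 1509. Its highest value in the 6 summer libraries was 1.65 CPM, and its median in winter was 1.2 CPM. The peripheral nerve markers of that library summed to 117 CPM, and their part in this value was not tested. DNAJC6 was named after its values were seen.

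Assistants of the mitochondrial and cytosolic chaperones that the report does not name gave further calls, all chosen after their values were seen. The mitochondrial proteins CLPB, a disaggregase, and CLPX, the unfoldase of the ClpXP protease, were lower in winter in 6 of 6 bears, with differences of −0.65 ± 0.15 and −0.36 ± 0.11 on the log2 scale (adjusted p = 0.00521 and 0.0232). ST13, or HIP, which steadies HSP70 on its client, held 221 to 348 CPM in summer and 321 to 414 in winter and was higher in 6 of 6 bears (0.39 ± 0.10, adjusted p = 0.0122). AHSA1, the activator of the HSP90 ATPase, was lower without overlap, at 59.8 to 66.9 CPM in summer and 44.3 to 52.8 in winter (−0.39 ± 0.09, adjusted p = 0.00759). The myosin chaperone UNC45B, at 127 to 175 CPM in summer and 122 to 168 in winter, was not called (0.03 ± 0.11, adjusted p = 0.839).

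Phosducin-like partners of CCT split: PDCL3 held 26.7 to 32.3 CPM in summer and 32.9 to 45.6 in winter (0.37 ± 0.11, adjusted p = 0.0172), and PDCL 11.7 to 15.7 and 7.16 to 11.9 (−0.48 ± 0.12, adjusted p = 0.00851). Of the tubulin cofactors, TBCD was lower in 6 of 6 bears (−0.55 ± 0.11, adjusted p = 0.00212), while TBCA, TBCB, TBCC and TBCE were not called, with differences of 0.26, 0.01, −0.27 and −0.10.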
